A study of Mus with 2 samples.

Results

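The genes described are Pf4 and 7 genes that mark tissue-resident-like macrophages, namely Mrc1, F13a1, Lyve1, Folr2, Stab1, Cd163 and Cbr2, which makes 8 of the 32285 features counted. They were chosen by name with earlier results of these measurements known, among them the level of Pf4 in both sections and its course from rim to core. The levels below are therefore a description. Counts of members set beside the share of all genes are no test of the list. Spatial transcriptomes (Visium) had been recorded from 2 subcutaneous CT26 tumors, CT26 being a mouse colon carcinoma line, grown in female balb/c mice that were 6 to 8 weeks old. The control mouse was given PBS. The rIL7 mouse was given 10 µg of recombinant mouse interleukin-7 (rIL7) into the peritoneum on day 11 and again on day 13 after transplantation, and both tumors were taken on day 15, frozen and cut at 10 µm. Each group holds 1 section, so no test between treatments was possible and no p-value is given.

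Pf4 encodes platelet factor 4, a chemokine stored in the granules of platelets and also made by some tissue macrophages. Macrophages that settle in tissues are recognised by receptors that take up debris and modified proteins, and in tumors they often lie along vessels and connective tissue. Among the scavenger receptors, Mrc1 (chr2:14229414-14332023) encodes the macrophage mannose receptor, Stab1 (chr14:31139017-31168651) encodes stabilin-1, and Cd163 (chr6:124304636-124330529) encodes the receptor that clears haemoglobin bound to haptoglobin. Lyve1 (chr7:110850607-110862953) encodes a hyaluronan receptor that lymphatic endothelium makes too, and Folr2 (chr7:101839988-101857190) encodes folate receptor beta. F13a1 (chr13:36867178-37050244) encodes the A subunit of coagulation factor XIII, and Cbr2 (chr11:120729485-120732025) encodes a carbonyl reductase. Pf4 itself lies at chr5:90772435-90773383, and all of these positions are gene spans of RefSeq on GRCm38.

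Each spot of the array can cover several cells, and its RNA molecules were counted by unique molecular identifier (UMI). The control section kept 2219 spots with 22951678 UMIs and the rIL7 section 1950 spots with 25729233 UMIs. Levels are UMIs per 1000000 UMIs (CPM), with 95% intervals that cover counting error only and leave out differences between animals and sections. Distance was counted in grid steps inward from the tissue outline, which gave a rim of steps 1 and 2, a margin of steps 3 to 6, a middle of steps 7 to 11 and a core from step 12. Zones used position alone, but their limits were set with earlier results of these sections known. The rim held 401 control and 330 rIL7 spots, and the core 575 and 506. Core spots were deeper in the rIL7 section, with a median of 15552.5 UMIs against 8571, whereas rim spots were alike at 11165.5 and 10901. Both arrays use one set of grid barcodes, and 1702 barcodes therefore occurred in both sections. In such sums, more cells of a type and more RNA per cell cannot be told apart.

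Pf4 declined slightly toward the core of the control section and had a pair of maxima in the rIL7 section. The control level was 153 CPM at the rim, 154 in the margin, 142 in the middle and 121 in the core. In the rIL7 section it was 389 CPM at the rim, 177 in the margin, 230 in the middle and 387 in the core. The outermost step of the rIL7 section held 505.5 CPM (473 to 539), and the level had dropped to 152 CPM (134 to 171) by step 4. It then climbed to 558 CPM (516 to 603) at step 13 and was back at 170 CPM (132 to 215) at step 20. The control section lay between 67.1 and 161 CPM at every step. The 4 quadrants of the rIL7 rim held 329 to 499 CPM and those of the control rim 99.3 to 182. Quadrants are parts of a section and not replicates, and Pf4 was chosen with its level in both sections already known. The gap between these ranges is therefore a description only, and how many other genes show such a gap was not counted.

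**Figure D1:**
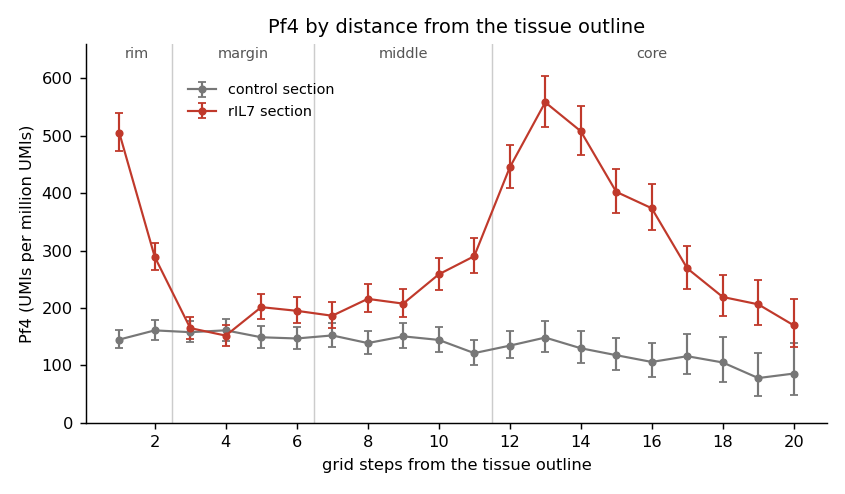
Pf4 level (CPM, y axis) by grid steps from the tissue outline (x axis) in the control and rIL7 sections, for steps with at least 20 spots, with exact Poisson intervals as bars. The rIL7 curve starts at 505.5 CPM, falls to 152 CPM at step 4 and peaks again at 558 CPM at step 13, while the control curve stays low throughout.

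The inner maximum lay largely in 1 compact patch. When Pf4 was summed over each spot and its 6 neighbours, 47 rIL7 spots reached at least 1000 CPM and 0 control spots did, the highest control value being 537 CPM against 3231 in the rIL7 section. Of these 47 spots, 39 were joined into 1 patch, which lay 10 to 17 steps below the outline and spanned 7 rows of the array. It held 33 spots of the core and 6 of the middle. The other 8 were rim spots in clusters of 5 and 3. The patch took up 2% of the rIL7 spots and held 1648 of the 7447 Pf4 UMIs, or 22.1%. This limit of 1000 CPM was set after the map had been seen. At 500 CPM the patch grew to 65 spots with 25.9% of Pf4 UMIs, and at 2000 CPM it shrank to 17 spots with 13.6%.

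**Figure D2:**
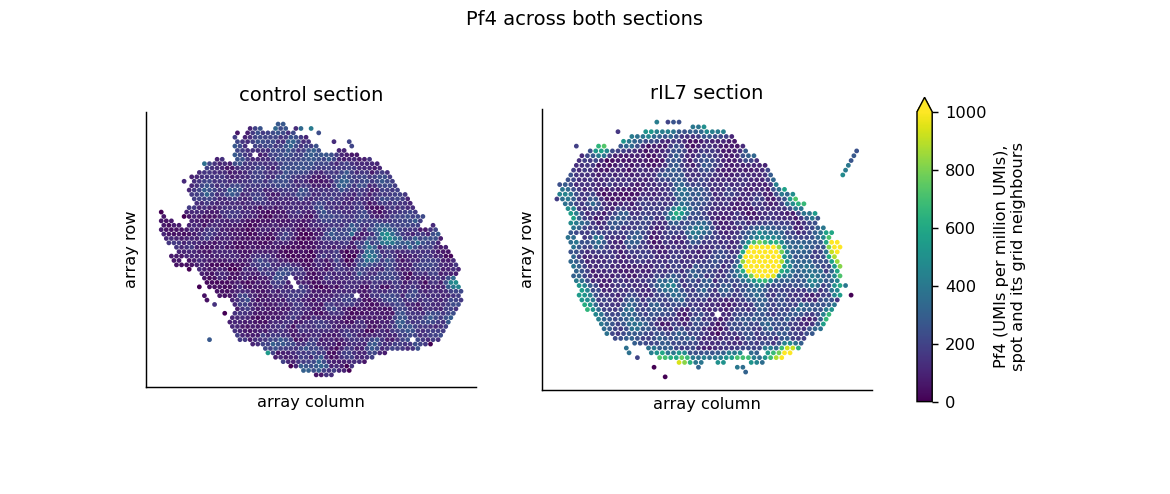
Pf4 level (colour, CPM summed over a spot and its grid neighbours, capped at 1000) by array column (x axis) and array row (y axis) for every spot of both sections. The rIL7 section shows 1 round patch of 39 spots above 1000 CPM in its interior and a raised band along its outline, and the control section shows neither.

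Away from the patch Pf4 fell within a few steps. The patch held 2024 CPM (1928 to 2125), the ring of spots touching it 519 CPM (460 to 584), the next ring 350 CPM (304 to 400.5) and the ring 4 steps out 233 CPM (199 to 271). F13a1 stood at 103, 42.9, 43.5 and 33.2 CPM in the same places, and Stab1, which fell off more slowly, at 454.5, 373, 273 and 299 CPM. Without the patch, the rest of the rIL7 core held 221 CPM, and the rim then exceeded the core by 0.81 on the log2 scale (0.71 to 0.92), against 0.01 (-0.08 to 0.10) with it. The equal Pf4 levels of rim and core in the rIL7 section thus depended on these 39 spots. They had been picked for high Pf4, so leaving them out had to lower core Pf4, while the 8 rim spots past the same limit stayed in. The size of the shift is therefore a description only, as is every Pf4 level or ratio without the patch below.

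The other members were raised in the patch as well. Pf4 had chosen the patch, but the other members had not. F13a1 stood at 103 CPM in the patch and 20.6 in the rest of the core, a ratio of 5.00 (3.78 to 6.57). Cbr2 stood at 102 and 39.5 CPM (ratio 2.58, 1.997 to 3.31), and Folr2 at 102 and 43.5 CPM (2.345, 1.82 to 2.995). The scavenger receptors followed. Stab1 had 454.5 CPM in the patch against 197 outside it (2.31, 2.06 to 2.59), Cd163 47.9 against 20.8 (2.31, 1.58 to 3.30), and Mrc1 270 against 132 (2.04, 1.76 to 2.37). Thus 6 of the 6 other members with at least 50 UMIs were at least 2-fold higher in the patch, where 2.43% of all 10217 genes with that many UMIs were. Lyve1 gave 2 UMIs in the patch and 2 in the rest of the core. The pan-macrophage list holds 9 genes, including the C1q chains, Csf1r and Adgre1. Summed, it differed less, with 3132 CPM in the patch and 1826 outside it (1.71, 1.64 to 1.79). Of its genes, C1qa, C1qb and C1qc had ratios of 1.74, 1.622 and 1.682, Csf1r 1.399 and Aif1 1.497. Fcgr1 (2.246, 1.738 to 2.874), Cd68 (2.182, 1.904 to 2.493) and Adgre1 (2.109, 1.476 to 2.955) passed 2-fold. Mertk, with 10 and 38 UMIs, was under the limit of 50. Being 2-fold higher in the patch was thus not limited to the resident-like members. The patch is 1 place in 1 section, and whether other rIL7 tumors hold such a patch was not measured.

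Other genes set the patch apart from the tissue around it. Among 6724 genes with at least 200 UMIs, the largest ratio belonged to Hmox1, the haem-degrading enzyme haem oxygenase-1, with 1391 CPM in the patch and 94.5 in the rest of the core (14.7, 13.4 to 16.2). It was followed by the heat-shock gene Hspa1a (14.4, 11.2 to 18.6), the chemokine genes Ccl5 (10.6, 9.71 to 11.7) and Cxcl2 (8.93, 6.95 to 11.46), and the interferon-induced gene Oasl1 (7.92, 6.07 to 10.3). The fatty acid binding protein gene Fabp5 (7.58), Ccl6 (6.54), Slfn4 (6.26), Wfdc17 (5.45) and Ifi27l2a (5.14) completed the first 10. The genes of MHC class II, which present antigen to CD4 T cells, were lower in the patch, with 803 CPM for the list of 4 against 1941 in the rest of the core (0.414, 0.382 to 0.448). Fibroblast genes were lower too, at 1178 against 1772 CPM. Platelet and megakaryocyte genes other than Pf4 gave 17.2 CPM in the patch and 27.5 outside it (0.625, 0.336 to 1.07), which was 14 UMIs in 39 spots. Spots of the patch were deep, with a median of 20056 UMIs against 15217 in the rest of the core.

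In the 8 high rim spots Mrc1 and Stab1 were not raised beyond counting error. These spots were shallow, with a median of 5706.5 UMIs against 11418.5 in the rest of the rim, and held 57 Pf4 UMIs. Mrc1 and Stab1 gave 6 UMIs each there, ratios to the rest of the rim of 0.957 (0.350 to 2.10) and 0.736 (0.269 to 1.61), and F13a1, Folr2, Cd163 and Cbr2 gave 1 UMI each, which is too few to compare. The Mrc1 interval also holds the ratio of 2.04 found for the patch, so these counts cannot show whether Mrc1 differs between these spots and the patch. MHC class II genes were 1.69-fold higher in them (1.55 to 1.85), Fabp4, a fatty acid binding protein gene that adipocytes, endothelium and macrophages make, 2.48-fold (1.48 to 3.896) and blood endothelial genes 2.54-fold (1.41 to 4.23), and Hmox1 gave 2 UMIs. Set against these rim spots, the patch held 3.17 times the Stab1 level (1.44 to 8.70) and 29.1 times the Hmox1 level (8.04 to 241).

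The totals of most members differed between the control and the rIL7 section. Per section, control first, F13a1 was at 7.63 and 24.6 CPM, Cbr2 at 14.2 and 34.9, Cd163 at 8.10 and 19.2, and Folr2 at 20.8 and 45.2. These were ratios of 3.23 (2.73 to 3.84), 2.47 (2.17 to 2.81), 2.36 (1.99 to 2.81) and 2.17 (1.95 to 2.42). Stab1 differed less, at 142 and 209 CPM (1.47, 1.40 to 1.53), and so did Mrc1, at 103 and 133 CPM (1.30, 1.23 to 1.37). Of the 6 members other than Pf4 with at least 50 UMIs, 4 were at least 2-fold higher in the rIL7 section, against 2.91% of 12988 genes. Pf4, whose section levels were known when it was chosen, was at 144 and 289 CPM. Lyve1 could not be judged at this depth, with 3 control and 10 rIL7 UMIs (ratio 2.97, 0.766 to 16.8). Its 0 UMIs in the control rim and core allow up to 0.671 and 0.612 CPM (3 counts). Without the patch the log2 ratio of Pf4 dropped from 1.01 to 0.70 (0.64 to 0.76) and that of F13a1 from 1.69 to 1.53. Cbr2 was then at 1.21, Cd163 at 1.17 and Folr2 at 1.06.

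Whole-section lists of other cells differed between the sections by unequal amounts. The pan-macrophage list differed little, at 2289 CPM in control and 2362 CPM in rIL7 tissue (1.03, 1.02 to 1.04), with 0 of 9 genes past 2-fold. The list of 20 other resident-like macrophage genes, among them Selenop, Apoe, Ccl8 and Maf, stood at 1997 and 3116 CPM (1.56, 1.54 to 1.58), and 5 of its 16 measurable genes were at least 2-fold higher. Platelet and megakaryocyte genes without Pf4 gave 23.3 and 25 CPM (1.07, 0.956 to 1.21), with Gp6, Gp9 and Tubb1 at 0 UMIs in both sections and most counts from Itga2b (399 and 492 UMIs), and lymphatic endothelial genes 37 and 20 UMIs. Skeletal muscle genes were at 37.5 CPM in control and 2.60 CPM in rIL7 tissue, mostly in the control core (104.5 against 2.13 CPM). The part of these tissue differences in the section ratios was not tested.

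By zone, the rIL7 over control ratios of the members followed Pf4 unequally. Pf4 was 2.54-fold higher in the rIL7 section at the rim, 1.15-fold in the margin, 1.62-fold in the middle and 3.20-fold in the core. Mrc1 had its ratios nearest to 1 in the margin (1.002, 0.905 to 1.11) and its highest in the core (1.64, 1.47 to 1.84). F13a1 was between 2.41 and 4.17 in every zone, and Folr2 between 1.78 and 2.61. Cbr2 was 1.46-fold higher at the rim (1.01 to 2.13) and 2.84-fold in the core (2.22 to 3.68). Of the 6 other members with enough UMIs, 4 reached 1.5-fold at the rim (10.2% of all genes), 4 in the margin (4.73%), 4 in the middle (3.75%) and 5 in the core (3.81%). The rims differed in other lists too, rIL7 over control, at 2.48 for MHC class II, 1.78 for blood endothelial, 1.76 for fibroblast and 1.52 for pan-macrophage genes, as did Fabp4 at 2.25 (1.98 to 2.555), and the part of these in the rim values was not tested.

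Within a section, summed rim and core levels of most members were close. Of 6 control members other than Pf4, 0 were at least 1.5-fold higher at the rim than in the core (3.43% of all genes) and 0 were that much higher in the core (6.00%). Stab1 was the member with the clearest slope there, from 118 CPM at the rim to 134, 151 and 167 CPM in the core, a rim over core ratio of 0.708 (0.634 to 0.791). Pf4 sloped the other way (1.26, 1.13 to 1.41), as did Mrc1 (1.201, 1.05 to 1.37). In the rIL7 section 0 of these 6 members were 1.5-fold higher at the rim (10.4% of all genes) and 1 was that much higher in the core (7.72%).

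That member was Cbr2. It went from 17.3 CPM at the rim of the rIL7 section to 27.1 in the margin, 39.8 in the middle and 45.2 in the core, a rim over core ratio of 0.383 (0.291 to 0.498). Its 4 rim quadrants held 12.8 to 23.5 CPM and its 4 core quadrants 21.7 to 68.6, so that the lowest core quadrant lay within the rim's range. The slope did not rest on the patch, since the log2 ratio was -1.38 with it and -1.19 (-1.59 to -0.80) without it. Control Cbr2 ran from 11.9 to 15.9 CPM, and its log2 rim over core ratio in rIL7 minus that in control was -0.96 (-1.59 to -0.33). The same difference was -0.33 (-0.51 to -0.15) for Pf4 and 0.33 (0.13 to 0.53) for Stab1, and the intervals of the other 4 held 0. Without the patch the sign of Pf4 turned, to 0.48 (0.29 to 0.66), which follows in part from picking the patch by Pf4. Stab1 then stood at 0.48 (0.28 to 0.68) and Cbr2 at -0.76 (-1.39 to -0.13), and the intervals of the other 4 again held 0.

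The remaining members had similar rim and core levels in the rIL7 section. Mrc1 stood at 150 and 144 CPM, F13a1 at 27.0 and 27.9, Folr2 at 48.7 and 49.0, Stab1 at 194 and 219, and Cd163 at 20.6 and 23.5. These sums hid uneven tissue. At step 1, steps 3 to 4 and steps 12 to 13, Mrc1 held 188.5, 102 and 165 CPM and F13a1 33.1, 16.9 and 37.3. Cd163 held 32.0, 9.16 and 23.9 CPM in the same bands. Like Pf4, these members thus dipped inside the rim. Folr2 (59.5, 42.75 and 55.3 CPM) and Stab1 (208, 186 and 231) dipped less, with overlapping intervals at step 1 and steps 3 to 4. The 4 rim quadrants held 43.9, 8.75, 41.2 and 10.9 CPM of F13a1, and the 4 core quadrants 16.4, 20.3, 14.9 and 50.6, the last being the core quadrant with the highest Pf4. Without the patch F13a1 was higher at the rim than in the core by 0.39 on the log2 scale (0.02 to 0.76). Pf4 itself ran between 329 and 499 CPM over the rim quadrants, and the core quadrants held 223, 338, 193 and 681 CPM. F13a1 was therefore high in rim quadrants where Pf4 was 329 and 410 CPM, and low in the ones where Pf4 was 337 and 499.

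**Figure D3:**
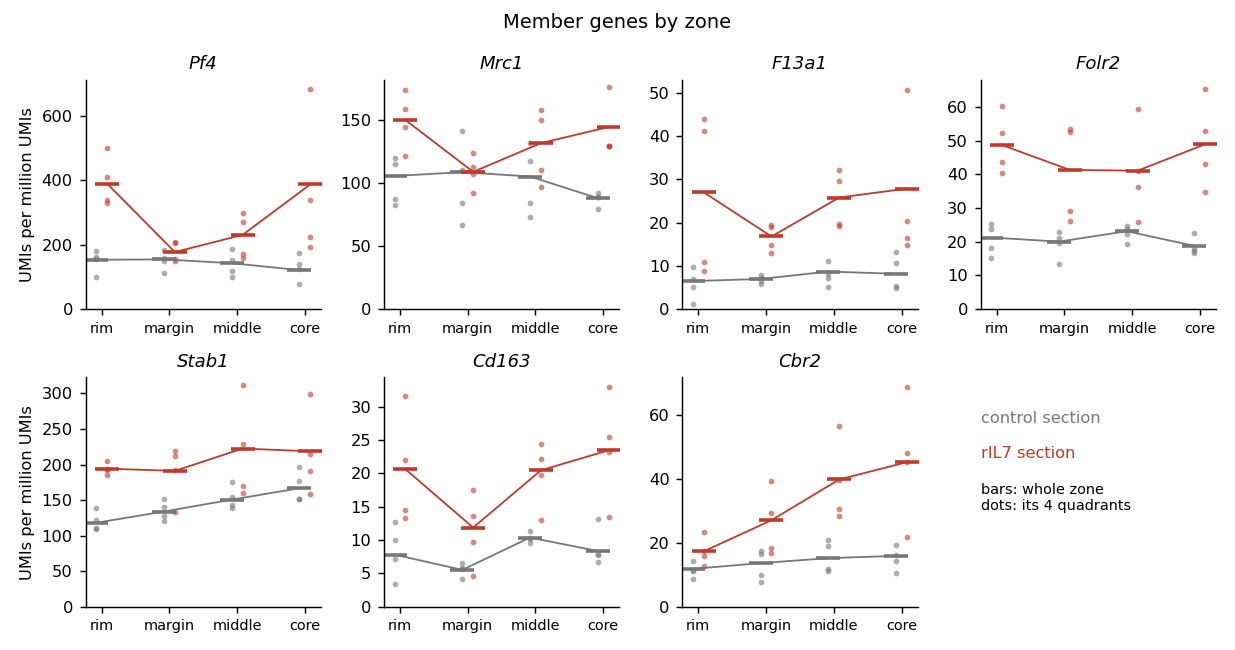
Level (CPM, y axis from 0) of the 7 members with at least 50 UMIs by zone (x axis) in the control and rIL7 sections, with bars for the whole zone and dots for its 4 quadrants, which are parts of 1 section and not replicates. Pf4 is at 389 CPM at the rIL7 rim and 387 in the core with 1 core quadrant at 681, and Cbr2 climbs from 17.3 to 45.2 CPM.

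To ask whether rim Pf4 and core Pf4 go with the same members, spots were divided by their own Pf4. Each spot was first thinned to 5900 UMIs, and spots with at least 2 remaining Pf4 UMIs (Pf4-positive) were compared with spots that had 0. The rIL7 rim gave 157 Pf4-positive and 52 Pf4-zero spots, and the rIL7 core 190 and 164. The control rim gave 63 and 147, and the control core 83 and 262. Median depths of the positive and zero spots were 12177 and 15075 UMIs at the rIL7 rim and 16315 and 15211.5 in the rIL7 core.

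Spot by spot at the rIL7 rim, the other members did not differ with Pf4 beyond counting error. Mrc1 had 163 CPM in Pf4-positive and 132.5 in Pf4-zero spots (1.23, 0.984 to 1.56), F13a1 31.3 and 23.6 (1.33, 0.776 to 2.38), and Folr2 53.8 and 42 (1.28, 0.858 to 1.964). Stab1 was at 193 and 197 CPM (0.979, 0.809 to 1.19), Cd163 at 22 and 18.4 (1.198, 0.646 to 2.36), and Cbr2 at 17.6 and 21 (0.839, 0.454 to 1.62). All 6 intervals hold 1, and those of F13a1, Folr2, Cd163 and Cbr2 are too wide to show that they were equal. In all, 0 of 6 members reached 1.5-fold, against 6.51% of 8013 genes. The pan-macrophage list was 1.29-fold higher (1.24 to 1.35) in the Pf4-positive rim spots, at 4195 against 3249 CPM, and per UMI of that list the ratios of the 6 members ran from 0.650 for Cbr2 to 1.03 for F13a1.

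In the rIL7 core 3 of 6 members reached 1.5-fold, against 2.52% of 9554 genes. F13a1 stood at 41.3 CPM in Pf4-positive and 18.4 in Pf4-zero spots (2.25, 1.59 to 3.22), Stab1 at 275 and 174 (1.58, 1.40 to 1.77), and Cd163 at 31.5 and 20 (1.57, 1.11 to 2.26). Stab1 was higher in 4 of 4 core quadrants (1.19 to 2.12), whereas F13a1 ran from 0.306 to 3.55 over them. The other ratios were 1.37 for Mrc1 (1.19 to 1.58), 1.30 for Folr2 (1.02 to 1.65) and 1.29 for Cbr2 (1.003 to 1.66). Without the patch 0 of 6 reached 1.5-fold, at 1.29 for F13a1 (0.859 to 1.94), 1.30 for Stab1 (1.14 to 1.47) and 1.29 for Cd163 (0.874 to 1.90), with 158 positive and 164 zero spots. Folr2 and Cbr2 were then at 0.994 and 0.932. The patch was picked for its Pf4, and leaving it out took the positive spots from 190 to 158 and removed no zero spots. Such a cut can by itself weaken these ratios. The same limit applies to the ratios and correlations without the patch given below. The pan-macrophage list was itself 1.30-fold higher (1.25 to 1.35) in the Pf4-positive core spots, and per UMI of that list F13a1 alone of the 6 stayed past 1.5-fold, at 1.73.

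Set against each other, rim and core differed for Stab1. Its log2 ratio of Pf4-positive to Pf4-zero spots gave a rim minus core difference of -0.69 (-1.01 to -0.37). The differences of F13a1 (-0.76, -1.66 to 0.14), Cbr2 (-0.62, -1.54 to 0.30) and Cd163 (-0.39, -1.39 to 0.60) had intervals that held 0. Mrc1 (-0.15, -0.53 to 0.23) and Folr2 (-0.02, -0.68 to 0.65) lay nearer 0. The patch was part of these core values, and without it the difference of Stab1 was -0.41 (-0.73 to -0.08) and the intervals of the other 5 held 0. In the control tumor 3 members (Mrc1, Folr2 and Stab1) had 50 UMIs in either zone, and 0 of 3 reached 1.5-fold at the rim (2.34% of all genes) or in the core (2.06%). Control Stab1 gave 1.31 (1.02 to 1.67) at the rim and 1.21 (0.991 to 1.47) in the core.

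**Figure D4:**
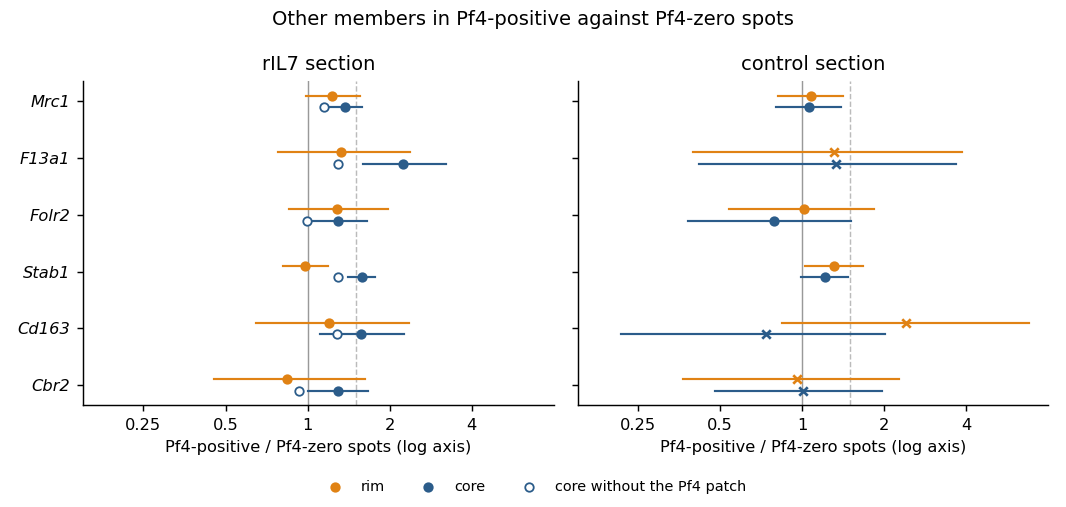
Ratio of each member's level in Pf4-positive over Pf4-zero spots (log x axis) at the rim and in the core of the rIL7 and control sections, with exact intervals as lines, crosses where the spots held under 50 UMIs and a dashed line at 1.5. In the rIL7 core F13a1 (2.25), Stab1 (1.58) and Cd163 (1.57) lie past the dashed line, and the open circles, drawn without the patch of 39 spots, do not.

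The genes with the highest rank correlation with Pf4 were not members, and they overlapped between rim and core. Across 280 thinned rIL7 rim spots the highest Spearman correlations with Pf4 were those of Ccl8 (0.53) and Apoe (0.52), then Psap (0.44), Ftl1 (0.40) and Lyz2 (0.38), which encode a chemokine, an apolipoprotein, a lysosomal activator, ferritin light chain and lysozyme. Across 504 core spots they were Ctsb (0.34), Hmox1 (0.33), Lyz2 (0.30), Ccl8 (0.30) and Fth1 (0.28). Ccl8 and Lyz2 stood in both lists, 2 of 5 genes in each. Mrc1 reached 0.15 at the rim, where the other members lay between -0.07 and 0.05. In the core Stab1 was at 0.24, rank 10 of 8039 genes, and the rest of the members with at least 50 UMIs lay between 0.07 and 0.14. The core values shrank without the patch, to 0.15 for Hmox1, 0.15 for Ccl8 and 0.15 for Stab1 over 472 spots, and Mrc1, F13a1, Folr2, Cd163 and Cbr2 then lay between 0.01 and 0.05. Leaving out spots picked for high Pf4 can lower such correlations by itself. At the rim, without the 4 of the 8 high rim spots that were deep enough for thinning, Ccl8 stood at 0.52 over 276 spots. The spots of a zone share 1 library and adjoin each other. No control gene exceeded 0.213 in either zone, and such weak values in sparse counts are no finding. Its leading genes were Haus8, Ino80c, Phldb1, Gtf3a and Tmem251 at the rim and S100a8, Cacnb3, Ccl4, Mt2 and Rpl27a in the core.

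Other macrophage genes were compared in the same way in the rIL7 section. The list of other resident-like genes was higher in Pf4-positive than in Pf4-zero spots of both zones, at 7445 and 3963 CPM at the rim (1.88, 1.81 to 1.95) and 3113 and 2024 CPM in the core (1.54, 1.49 to 1.59). At the rim 9 of its 13 measurable genes were at least 1.5-fold higher in Pf4-positive spots, where 6.51% of all genes were, among them Selenop (2.46), which encodes a selenium carrier, Ccl8 (2.27), Apoe (1.80) and the C-type lectin genes Mgl2 (3.63, 1.76 to 8.71) and Clec10a (3.23, 1.62 to 7.33). In the core 3 of 12 were, namely Selenop (2.49), Ccl8 (2.17) and Apoe (1.61), against 2.52% of all genes, and the difference between these counts was not tested. Without the patch these became 1.60, 1.29 and 1.21. Mgl2 gave 1.04 (0.789 to 1.38) in the core.

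Of the list of 8 hypoxia and lipid genes, 4 of 7 measurable ones were at least 1.5-fold higher in Pf4-positive spots at the rim (6.51% of all genes). In the core 4 of 7 were (2.52%). Fabp5, Hmox1 and Trem2 were counted in both zones, Cd36 at the rim only and Arg1 in the core only. Summed, the list gave 0.959 (0.912 to 1.01) at the rim and 1.06 (1.03 to 1.09) in the core. The core ratios of Hmox1, Fabp5 and Arg1 were steeper through the patch. Hmox1 was at 448 CPM in Pf4-positive and 63.2 in Pf4-zero core spots (7.09, 6.01 to 8.41), with 0.919 to 7.81 over the 4 quadrants and 2.40 (1.985 to 2.91) without the patch. Fabp5 was 3.76-fold higher (3.26 to 4.37) and Arg1, the arginase gene, 2.36-fold (2.02 to 2.77), and without the patch they stood at 1.78 and 1.60. At the rim the ratios were 2.39 for Hmox1 (1.52 to 3.93), 1.63 for Fabp5 and 1.45 for Arg1 (0.986 to 2.18), close to the core ratios without the patch. Spp1, by far the largest contributor of UMIs to this list, was lower in Pf4-positive spots of both zones, at 0.885 and 0.831.

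The MHC class II genes differed between rim and core. The list held 8944 CPM in Pf4-positive and 5705 in Pf4-zero rim spots (1.57, 1.52 to 1.62), but 1686 and 1969 CPM in the core (0.856, 0.824 to 0.890). H2-Aa gave 1.69 (1.55 to 1.85) at the rim and 0.789 (0.703 to 0.884) in the core. Without the patch the core ratios of the 4 genes lay between 0.902 (H2-Aa, 0.802 to 1.01) and 1.02 (Cd74, 0.969 to 1.08), with intervals that held 1, so the lower core levels depended on the patch, which holds 0 rim spots. Blood endothelial genes were at 172 CPM in Pf4-positive and 73.5 in Pf4-zero rim spots (2.34, 1.76 to 3.17), and the core ratio was 0.850 (0.681 to 1.06). Platelet and megakaryocyte genes did not differ beyond counting error in either place, at 0.839 (0.485 to 1.499) and 0.818 (0.578 to 1.16). The part of vessels and other cells in the rim values was not tested.

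**Figure D5:**
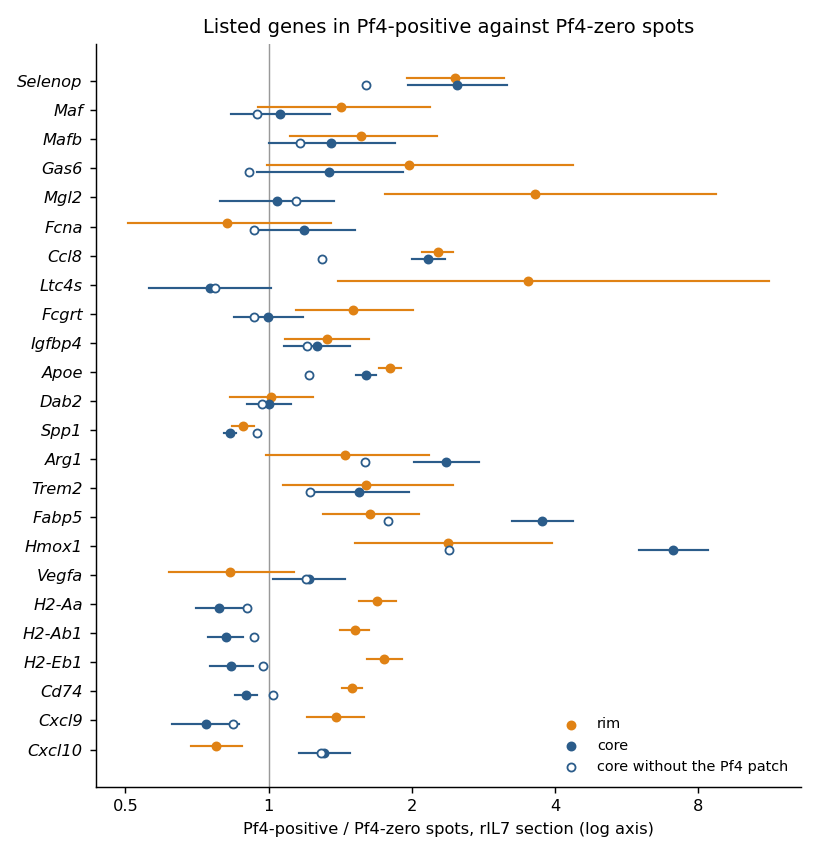
Ratio of Pf4-positive over Pf4-zero spots (log x axis) in the rIL7 section for genes of the resident-like, hypoxic and lipid, MHC class II and chemokine lists with at least 50 UMIs in both zones, at the rim and in the core, with exact intervals as lines. Hmox1 reaches 7.09 in the core and 2.40 without the patch of 39 spots (open circle), and the 4 MHC class II genes lie above 1 at the rim and below 1 in the core, where their open circles lie between 0.902 and 1.02.

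The amounts of the members per Pf4 molecule were compared directly between Pf4-positive rim and core spots of the rIL7 section. Per 100 Pf4 UMIs they held 29.0 and 23.0 UMIs of Mrc1, 5.56 and 5.56 of F13a1, 9.55 and 7.87 of Folr2, 34.2 and 37.0 of Stab1, and 3.91 and 4.23 of Cd163. Cbr2 was at 3.13 per 100 Pf4 UMIs at the rim and 7.14 in the core. The closeness of most of these pairs depended on the patch, without which the Pf4-positive core spots held 40.5 UMIs of Mrc1, 6.70 of F13a1, 12.7 of Folr2, 64 of Stab1, 7.275 of Cd163 and 10.85 of Cbr2 per 100 Pf4 UMIs, each above its rim value. The patch was picked for its Pf4, and without it Pf4 in these core spots went from 743.5 to 354 CPM. That choice alone pushes the amounts per Pf4 UMI up, while the high rim spots stayed in. In CPM Cbr2 was at 17.6 and 53.1 (rim over core 0.331, 0.225 to 0.478), and Stab1 at 193 and 275 (0.700, 0.620 to 0.790), and without the patch these ratios were 0.459 (0.303 to 0.680) and 0.851 (0.746 to 0.971). H2-Aa was 7.09-fold higher (6.49 to 7.76) in the rim spots and Hmox1 was lower there, at 68.9 against 448 CPM (0.154, 0.129 to 0.183).

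Relative to macrophage RNA, the 7 members with at least 50 UMIs were higher in the core than at the rim of the rIL7 section. The pan-macrophage list stood at 3792.5 CPM at its rim and 1950 in its core. Pf4 per 1000 UMIs of that list was 103 at the rim, 74.5 in the margin, 115 in the middle and 198.5 in the core, or 121 in the core without the patch, and in the control it lay between 60.9 and 67.0. Cbr2 went from 4.57 to 23.2, Stab1 from 51.2 to 112, Mrc1 from 39.5 to 73.9 and F13a1 from 7.12 to 14.3 per 1000. In the control section the same 7 members were also higher in the core than at the rim. Control Stab1 went from 47.3 to 92.3, Cbr2 from 4.75 to 8.82, F13a1 from 2.60 to 4.52 and Cd163 from 3.14 to 4.63. Control Folr2 went from 8.52 to 10.4, Mrc1 from 42.2 to 48.6 and Pf4 from 61.3 to 67.0. Cd163 went from 5.44 to 12 and Folr2 from 12.8 to 25.1 in the rIL7 section. Without the patch the core values of the 6 members other than Pf4 were also above their rim values, at 108 for Stab1 and 21.6 for Cbr2.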

How the data were processed

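Spatial gene expression was analysed in 1 control and 1 rIL7 Visium section. The authors processed barcodes with Space Ranger 1.1.0 on mm10 and deposited raw UMI counts per gene and spot, along with in-tissue flags and array positions. Spots were kept, following the study's methods, with under 10% mitochondrial UMIs and more than 200 genes. The counts were summed per gene and zone and divided by total UMIs. Intervals (95%) were exact Poisson for a level and Clopper-Pearson for a ratio of sums, or normal on the log2 scale for a difference of ratios, and cover counting error only. PCR duplicates were already collapsed by UMI. Ratios were judged for genes with at least 50 UMIs. Quadrants were cut at the median array row and column. The text names all members, the 5 genes most correlated with Pf4 per zone (mean of at least 0.1 thinned UMIs), and genes of fixed lists. The 10 patch genes were ranked after the patch had been seen. Alternatives covered the spot filter, the totals and scaling behind CPM, the zone limits, the Pf4 classes and thinning. Members and lists were chosen with earlier results of these data known. All 8 members matched a RefSeq symbol. The calculations, in Python 3.11.15 with numpy 2.4.6, scipy 1.17.1 and pandas 2.3.3, were tested on simulated data. Scaling factors came from edgeR 4.0.16 and DESeq2 1.42.0 in R 4.3.3.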

Additional observations from a re-analysis of the deposited data

Results flagged for a closer look

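Genes of the fixed lists were flagged where the ratio of Pf4-positive to Pf4-zero spots lay on opposite sides of 1 at the rim and in the core, both beyond counting error. Whether rim and core differ in this over animals was not tested. With rIL7, the MHC class II genes Cd74 (1.496 at the rim, 0.897 in the core), H2-Aa (1.69 and 0.789), H2-Ab1 (1.52 and 0.812) and H2-Eb1 (1.75 and 0.836) went this way, as did the collagen gene Col3a1 (1.24 and 0.819). The interferon-induced chemokine genes took opposite directions, with Cxcl9 at 1.38 at the rim and 0.738 in the core and Cxcl10 at 0.777 and 1.31. Without the patch of 39 spots the core ratios of the MHC class II genes were 1.02 for Cd74, 0.902 for H2-Aa, 0.931 for H2-Ab1 and 0.972 for H2-Eb1, and that of Col3a1 was 0.922, all with intervals that held 1, while Cxcl10 stood at 1.29 and Cxcl9 at 0.841. In the control section Spp1 was flagged, at 1.095 at the rim and 0.780 in the core.

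Spots outside the main piece of tissue entered the section totals but no comparison by zone. They held 39 of the 10079 member UMIs of the control section and 185 of the 19438 of the rIL7 section. The control section had 12 and the rIL7 section 21, and several members were higher in the latter beyond counting error. Pf4 was at 293 CPM in the rIL7 spots (51 UMIs) and 161 CPM in the control spots (15 UMIs). F13a1 was at 80.4 CPM (14 against 1 UMIs), Folr2 at 103 CPM (18 against 1), Stab1 at 207 CPM (36 against 3) and Cbr2 at 68.9 CPM (12 against 0). Fibroblast genes stood at 9988 CPM in these rIL7 spots and 2027 in the control ones, and Fabp4 gave 281 against 7 UMIs, and their part in the member levels was not tested.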

How the results depend on the processing

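The 9 main results were recomputed under 104 combinations with another setting, and 84 stayed within their own counting interval or within 1.5 times the count. The log2 rim over core ratio of Pf4 in the rIL7 section (0.01) was the least settled, at 0.32 with each spot weighted the same, 0.39 and -0.28 with rims of 1 and 3 steps, 0.12 and 0.20 with the core from 10 and 14 steps, and 0.81 without the patch. The number of members that followed Pf4 in the rIL7 core (3) was 6 with 3 or more thinned Pf4 UMIs, 5 with spots ranked on sums over each spot and its 6 neighbours, 1 per UMI of the pan-macrophage list and 0 without the patch. At the rIL7 rim (0) it was 1 with a rim of 3 steps, 1 with 3 or more thinned UMIs, 1 without thinning and 2 with neighbour sums. In the control section (0) it was 1 at the rim with 3 or more thinned UMIs, 1 with the second thinning draw, and 1 in the core with neighbour sums. Members higher at the rIL7 rim than in the core (0) became 1 with no minimum of UMIs and 1 without the patch. The log2 ratio of Pf4 in the rIL7 over the control section (1.01) moved to 0.70 without the patch, a setting chosen after seeing the data. Cd163 reversed in the rIL7 core with classes on unthinned UMIs, to -0.18 (-0.97 to 0.73). Of 502 values for single members 466 kept within their interval and 59 had another sign than the main value. No paired analysis was possible because each group holds 1 section. Depth limits Lyve1 (13 UMIs in all) and, in the control section, F13a1, Cd163 and Cbr2 within Pf4 classes.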
